A study of Mus musculus with 6 samples.

Results

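The genes described here carry the unfolded protein response and the ATF4 stress response, 40 in all of 19938 genes that the arrays name, measured in mouse osteoblasts with and without the complement fragment C5a. They were taken as a fixed list and split by the sensor they answer to: 21 genes of the PERK/ATF4 arm, 11 of the ATF6 arm and 8 of the IRE1 arm. Each gene was read from the probeset, a group of short probes for 1 transcript, that names only this gene and has the highest mean over the arrays. All 40 genes had such a probeset, and 3 had more than 1.

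Primary osteoblasts came from male C57BL6/J wild-type (WT) mice aged 8 to 12 weeks, were used at passage 2 to 3 according to the labels, and were kept for 14 days under osteogenic conditions. The cells of each mouse were then divided. The unstimulated group spent 4 h in normal proliferation medium, and the C5a group spent the same 4 h in that medium with 100 ng/ml recombinant murine C5a, so both groups had left the osteogenic medium. Mice numbered 2, 4 and 5 gave 1 array per group, 6 arrays in all, and values are listed in that order of mice throughout.

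Secretory cells such as osteoblasts fold large amounts of collagen and matrix protein in the endoplasmic reticulum (ER), and misfolded protein there is sensed by PERK, ATF6 and IRE1. PERK is a kinase of the translation factor eIF2α; its phosphorylation slows protein synthesis in general and favours translation of the transcription factor ATF4, which drives genes of amino acid supply, redox balance and, through CHOP, cell death, and other eIF2α kinases such as GCN2 reach ATF4 as well (the integrated stress response). ATF6 is cut to a transcription factor that raises ER chaperones, and IRE1 splices the Xbp1 mRNA into the form that encodes an active factor for chaperones and ER-associated degradation.

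With C5a, the PERK/ATF4 arm lay lower and the arms of ATF6 and IRE1 lay slightly higher than in unstimulated cells. Of the 21 genes of the PERK/ATF4 arm, 19 had a mean change below 0, with a median of -0.23 on the log2 scale. Of 11 genes of the ATF6 arm, 8 had a change above 0 with a median log2 change of 0.18, and of 8 genes of the IRE1 arm, 7 had a change above 0 with a median of 0.13. Over all 19938 genes the median log2 change was -0.01, and 10393 of them lay below 0. The arm medians in the individual mice were -0.35, -0.11 and -0.27 for PERK/ATF4, -0.12, 0.21 and 0.21 for ATF6, and 0.10, 0.21 and 0.19 for IRE1. The ATF6 arm thus had a median below 0 in mouse 2. Without mouse 5 its median was 0.06.

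Each gene was tested by limma with the mouse as a block, over all 35556 probesets. The p-value and fold thresholds that the methods of the study name, p under 0.05 and a change of at least 1.5-fold, were passed by 5 members that were lower with C5a (Ppp1r15a, Sesn2, Chac1, Ddit4 and Ddit3) and by 1 that was higher (Ern1). Of all genes, 2.21% were lower and 2.22% higher by these thresholds. All 5 lower members belong to the PERK/ATF4 arm, and the higher one belongs to the IRE1 arm. At an adjusted p under 0.05 (limma, Benjamini-Hochberg), 0 of 40 members passed, where 0.0112% of the probesets did, and the smallest adjusted p among the members was 0.0704. At an unadjusted p under 0.05, 10 members were lower and 6 higher (limma), beside 11.9% and 8.26% of all genes. With the methods' t-test 12 of 40 members had an unadjusted p under 0.05 and 0 an adjusted one. When the fit held only the 21789 probesets that name 1 gene, 5 members passed the adjusted threshold, Ppp1r15a, Ddit3, Ddit4, Sesn2 and Ern1, beside 795 probesets in all. A change in the same direction in 3 of 3 mice was found for 13 members on the lower side and 8 on the higher side, and for 22.9% and 19% of all genes. The 13 lower ones held 11 genes of PERK/ATF4 and 2 of ATF6, and the 8 higher ones held 4 of ATF6 and 4 of IRE1. The 2 groups did not overlap for 8 members on the lower side (20%) and 5 on the higher side (12.5%). The shares of all genes were 9.95% and 8.67%, so a gap between groups of 3 arrays is common.

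**Figure D1:**
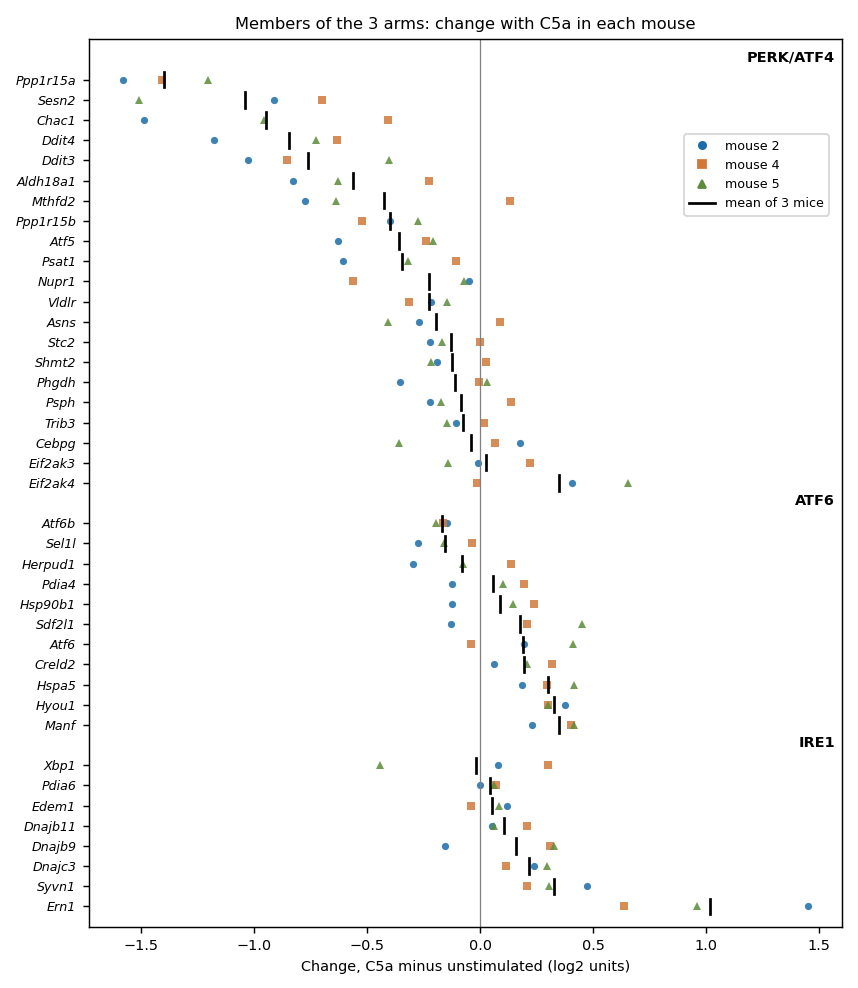
Change with C5a (log2 units, C5a minus unstimulated) of each of the 40 genes, by arm, with 1 point per mouse and a black bar at the mean of 3 mice. In the PERK/ATF4 arm 19 of 21 means lie left of 0, and in the other arms 15 of 19 lie right of it.

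**Figure D2:**
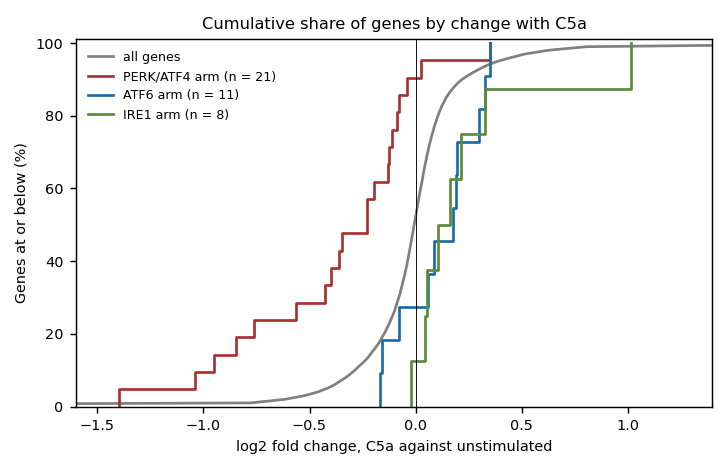
Cumulative share of genes (%) at or below each log2 fold change, for the 3 arms (steps) and for all 19938 genes (grey curve). The median is at -0.23 for PERK/ATF4, 0.18 for ATF6, 0.13 for IRE1 and -0.01 for all genes.

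Some of the members' promoters hold letters that match the 4 motifs searched here, and binding was not measured. RefSeq promoter windows on GRCm38.p6, reaching from 250 bases before to 50 bases after a gene's start, were at hand for 36 of 40 members and were searched on both strands. The ER stress element (ERSE), CCAAT and then CCACG with any 9 bases between them, which binds NF-Y with ATF6 or XBP1, was in 0.119% of the 32851 windows and in those of 6 members, Hspa5, Hsp90b1, Creld2, Dnajc3, Pdia6 and Syvn1. The shorter ERSE-II, ATTGG and then CCACG with any 1 base between them, was in 0.0365% of windows and in those of Herpud1 and Dnajb11. The core of the C/EBP-ATF response element (CARE), TGATGNAA, was in 3.97% of windows and in those of Asns, Chac1, Nupr1, Trib3, Vldlr and Herpud1, and the cAMP response element (CRE), TGACGTCA, was in 1.79% of windows and in that of Ppp1r15a. In the members' windows no match of 1 motif shared a base with a match of another. The stretches below show, for members of each arm, these motifs with their fixed letters in capitals, 5′ to 3′ on the gene's own strand. They lie at chr7:45526268-45526388 on the minus strand for Ppp1r15a, chr2:119351039-119351158 on the plus strand for Chac1, chr6:7693210-7693329 on the minus strand for Asns, chr8:94386309-94386428 on the plus strand for Herpud1, chr2:34771970-34772089 on the plus strand for Hspa5, chr10:86705528-86705666 on the minus strand for Hsp90b1, chr14:118937812-118937931 on the plus strand for Dnajc3 and chr19:6046456-6046575 on the plus strand for Syvn1. Ppp1r15a shows the CRE, Chac1 and Asns show the CARE, Herpud1 holds the CARE followed by the ERSE-II, and the last 4 show the ERSE, which Hsp90b1 holds on both strands.
Ppp1r15a: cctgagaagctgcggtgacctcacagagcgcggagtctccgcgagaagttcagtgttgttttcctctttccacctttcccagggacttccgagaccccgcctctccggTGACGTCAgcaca
Chac1: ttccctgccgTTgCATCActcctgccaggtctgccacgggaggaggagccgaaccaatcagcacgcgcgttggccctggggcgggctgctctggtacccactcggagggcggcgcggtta
Asns: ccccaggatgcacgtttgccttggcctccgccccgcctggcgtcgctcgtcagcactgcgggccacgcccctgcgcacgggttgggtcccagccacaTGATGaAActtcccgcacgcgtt
Herpud1: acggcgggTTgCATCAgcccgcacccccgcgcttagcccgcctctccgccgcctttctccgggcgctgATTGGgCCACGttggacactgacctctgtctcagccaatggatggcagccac
Hspa5: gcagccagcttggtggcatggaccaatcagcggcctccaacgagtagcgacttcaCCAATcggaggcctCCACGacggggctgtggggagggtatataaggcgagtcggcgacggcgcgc
Hsp90b1: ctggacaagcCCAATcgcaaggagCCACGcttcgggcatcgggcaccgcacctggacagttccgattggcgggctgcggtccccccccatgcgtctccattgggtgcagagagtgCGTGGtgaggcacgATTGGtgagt
Dnajc3: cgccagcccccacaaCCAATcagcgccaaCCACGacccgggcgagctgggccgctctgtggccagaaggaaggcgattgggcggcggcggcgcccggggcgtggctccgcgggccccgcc
Syvn1: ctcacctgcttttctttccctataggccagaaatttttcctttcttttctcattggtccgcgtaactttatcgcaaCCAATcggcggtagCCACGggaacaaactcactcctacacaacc

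The 6 members with an ERSE all had a change above 0 (median log2 change 0.21), and the 6 with a CARE all had a change below 0 (median -0.21). Of the 22 members with a window and none of the 4 motifs, 15 lay below 0 and 7 above it. Among genes outside the list the same motifs went with no common side: with an ERSE, 9 of 15 measured genes lay below 0, with a median of -0.05, and with a CARE, 285 of 559 did, with a median of -0.01. Motif and arm went together: 5 of the 6 members with a CARE belong to the PERK/ATF4 arm. The 6 with an ERSE belong to the ATF6 arm (3) and the IRE1 arm (3). The 22 members without a motif come from all arms and were not split, so these counts do not separate motif from arm. They were made after the changes were known and are a description of letters and values.

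The 2 members of the PERK/ATF4 arm with a mean change above 0 were its kinases. Eif2ak3, which encodes PERK itself, stood at 8.97, 8.85 and 8.69 (RMA, log2) in the unstimulated cultures and at 8.96, 9.08 and 8.55 with C5a, and its log2 change of 0.02 (95% confidence interval -0.22 to 0.27) was smaller than its SE of 0.10. Eif2ak4, which encodes the amino acid sensor GCN2, had a mean log2 change of 0.35 (interval -0.02 to 0.72), higher in mice 2 and 5 (0.40 and 0.66) and at -0.01 in mouse 4. Neither kinase passed p under 0.05.

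The phosphatase subunits that remove the phosphate from eIF2α were both lower. Ppp1r15a (GADD34), the stress-induced subunit and the member with the largest decrease of the 40, stood at 8.33, 7.95 and 7.96 in the unstimulated cultures and at 6.75, 6.54 and 6.76 with C5a. The 3 cultures with C5a all lay more than 1 log2 unit below the lowest unstimulated one. Its log2 change was -1.40 (SE 0.10, n = 3 mice; limma adjusted p = 0.0704), a 2.64-fold decrease. Ppp1r15b, the constitutive subunit, changed by -0.40, -0.52 and -0.27 in the mice, with a mean log2 change of -0.40 (limma adjusted p = 0.131). Its groups did not overlap either, but a second probeset for the gene gave -0.30 with a change of only -0.02 in mouse 5.

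Among the regulators downstream of ATF4, 8 of 8 had a mean change below 0 and 4 passed the methods' thresholds. Sesn2, a leucine sensor that restrains mTORC1, stood at 9.50, 9.42 and 9.73 unstimulated and at 8.59, 8.72 and 8.22 with C5a, a log2 change of -1.04 (SE 0.17, n = 3; limma adjusted p = 0.110). Chac1, an enzyme that degrades glutathione, stood at 8.52, 7.68 and 8.21 unstimulated and at 7.03, 7.27 and 7.25 with C5a, a log2 change of -0.95 (SE 0.21, n = 3; limma adjusted p = 0.144). In both genes every culture with C5a lay below every unstimulated one, with the widest gap in mouse 5 for Sesn2 and in mouse 2 for Chac1.

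Ddit4 (REDD1), another inhibitor of mTORC1, stood at 8.49, 8.46 and 8.83 unstimulated and at 7.31, 7.83 and 8.10 with C5a, a log2 change of -0.85 (SE 0.13, n = 3; limma adjusted p = 0.102). Ddit3, which encodes the pro-apoptotic factor CHOP, stood at 8.93, 8.87 and 8.64 unstimulated and at 7.90, 8.01 and 8.24 with C5a, a log2 change of -0.76 (SE 0.14, n = 3; limma adjusted p = 0.116). The groups did not overlap for either gene, and the decrease of Ddit3 was smallest in mouse 5, at -0.41. These calls depended on the form of the test. In the paired form of the methods' t-test, which uses the spread of each gene alone, Ppp1r15a and Ddit4 remained past both thresholds. Sesn2, Chac1, Ddit3 and Ern1 did not pass the p threshold there, and Sesn2, Ern1 and Ddit3 missed it narrowly. The paired form has only 2 degrees of freedom. Without pairing, all of these genes passed both thresholds in the methods' t-test, and Sesn2 and Ddit3 ranked ahead of Ddit4 by p-value. The paired split thus does not show that the call of Ddit4 is firmer than those of Sesn2, Ddit3 and Ern1. Atf5, a factor related to ATF4, was lower in 3 of 3 mice with a mean log2 change of -0.36 (limma adjusted p = 0.219), below 1.5-fold.

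The remaining 3 regulators showed small mean changes, of -0.23 for the stress protein Nupr1, -0.08 for Trib3, a pseudokinase that feeds back on ATF4, and -0.04 for Cebpg, a dimer partner of ATF4. Most of the change of Nupr1 came from mouse 4, at -0.56, against -0.05 and -0.07 in the other mice. Trib3, usually counted with Chac1 and Ddit3 as a target of ATF4 and CHOP, stood between 6.63 and 6.92 on all 6 arrays.

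**Figure D3:**
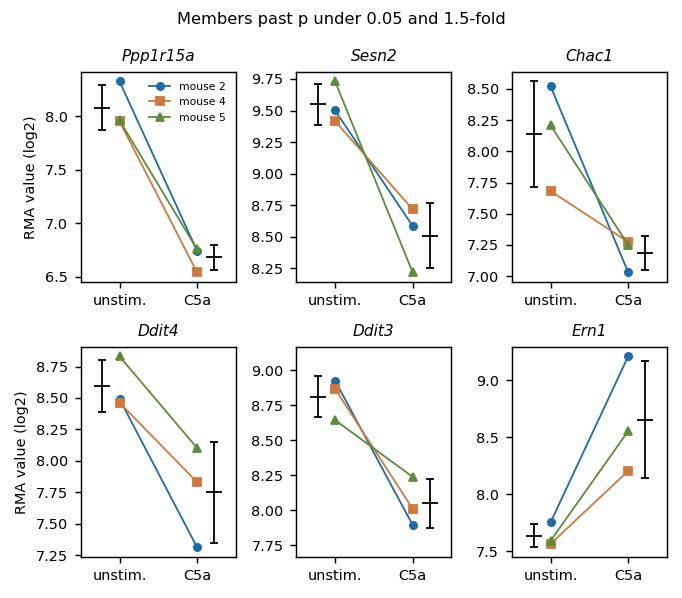
RMA values (log2) of the 6 genes past p under 0.05 and 1.5-fold, with 1 line per mouse from unstimulated to C5a, and the mean with SD (n = 3) beside each group. Every value with C5a lies below every unstimulated value for Ppp1r15a, Sesn2, Chac1, Ddit4 and Ddit3, and above it for Ern1. Of all genes, 9.95% lay apart in this way on the lower side and 8.67% on the higher side. Each panel has its own axis.

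The enzymes of amino acid and one-carbon metabolism that ATF4 controls, 7 in the list, all had a mean change below 0, with a median log2 change of -0.20, and 0 of 7 passed the methods' thresholds. Aldh18a1, the first enzyme of proline synthesis from glutamate, had the largest decrease of the 7, at 10.11, 9.91 and 9.96 unstimulated and 9.28, 9.68 and 9.33 with C5a. Its groups did not overlap, and its log2 change of -0.56 (SE 0.13, n = 3; limma adjusted p = 0.153) corresponds to 1.48-fold. Mthfd2, the mitochondrial folate enzyme, stood at 8.78, 8.11 and 8.66 unstimulated and 8.01, 8.24 and 8.02 with C5a, so it was lower in mice 2 and 5 and higher in mouse 4. Psat1, of serine synthesis, was lower in 3 of 3 mice with a mean log2 change of -0.35 (limma adjusted p = 0.249) and no overlap of its groups. The mean log2 changes of the other 4 were -0.20 for Asns, which makes asparagine, -0.13 for Shmt2, which moves a carbon from serine to folate, and -0.11 and -0.09 for Phgdh and Psph, the first and last enzymes of serine synthesis.

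For all 7 enzymes the change was smallest in size in mouse 4, as it was for 40.8% of all genes. The median over the 7 was a log2 change of -0.35 for mouse 2, 0.03 for mouse 4 and -0.32 for mouse 5. In 6 of 7 the unstimulated culture of mouse 4 was also the lowest of the unstimulated ones, as it was in 36.1% of all genes. This value is subtracted to give the change of mouse 4, so the 2 counts are not independent, and with C5a mouse 4 had the highest value of the mice for Aldh18a1 (9.68), Mthfd2 (8.24), Shmt2 (8.35) and Psph (7.46). With mice 2 and 5 only, Aldh18a1 and Mthfd2 passed the methods' thresholds, with log2 changes of -0.73 and -0.71, and 7 members in all were lower. Calls over all probesets rose as well without mouse 4, from 558 to 745 lower and from 608 to 1009 higher. The targets on the secreted and surface side changed little, with a mean log2 change of -0.23 for the lipoprotein receptor Vldlr, lower in 3 of 3 mice, and of -0.13 for the hormone Stc2.

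**Figure D4:**
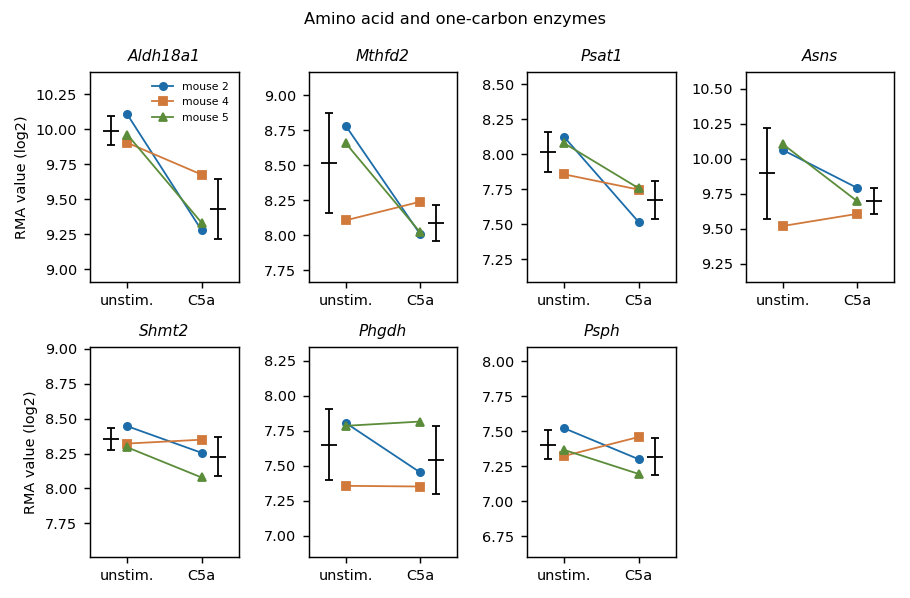
RMA values (log2) of the 7 amino acid and one-carbon enzymes, with 1 line per mouse from unstimulated to C5a, and the mean with SD (n = 3) beside each group. The line of mouse 4 is flat or rising in 5 panels and falls less than the others for Aldh18a1 and Psat1; all panels span the same number of log2 units.

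The ER chaperones and their cofactors, 11 genes shared between the ATF6 and IRE1 arms, went the other way: 11 of 11 had a mean change above 0, with a median log2 change of 0.18, 4 had an unadjusted p under 0.05, and 0 of 11 reached 1.5-fold. Hspa5, the main HSP70 chaperone of the ER (BiP) and a common gauge of the response, stood at 12.83, 12.45 and 12.59 unstimulated and at 13.01, 12.75 and 13.01 with C5a. It was higher with C5a in 3 of 3 mice while the groups overlapped, and its log2 change was 0.30 (SE 0.08, n = 3; limma adjusted p = 0.174), a 1.23-fold difference. Hyou1, a large HSP70-like chaperone, stood at 9.51, 9.28 and 9.43 unstimulated and at 9.89, 9.58 and 9.73 with C5a, a log2 change of 0.33 (SE 0.07, n = 3; limma adjusted p = 0.134). Manf, a secreted ER stress factor that binds BiP, stood at 9.18, 8.89 and 8.996 unstimulated and at 9.42, 9.29 and 9.41 with C5a, a log2 change of 0.35 (SE 0.08, n = 3; limma adjusted p = 0.141). For Hyou1 and Manf every culture with C5a lay above every unstimulated one.

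Dnajc3, the co-chaperone p58IPK that also inhibits PERK, was higher in 3 of 3 mice, with a log2 change of 0.22 (SE 0.07, n = 3; limma adjusted p = 0.264); its 2 probesets hold identical values on all 6 arrays and count once. Creld2 and Dnajb11 were also higher in 3 of 3 mice, with mean log2 changes of 0.20 and 0.11. The changes of Sdf2l1 (0.18), Dnajb9 (0.16), the HSP90 of the ER Hsp90b1 (0.09), and the disulfide isomerases Pdia4 (0.06) and Pdia6 (0.04) were at or below 0 in mouse 2 and above 0 in the other mice. For Pdia4 the choice of probeset matters: the second one was higher in 3 of 3 mice, with a log2 change of 0.50 (limma adjusted p = 0.150). The unstimulated culture of mouse 2 had the highest unstimulated value for 11 of 11 chaperones and for 30 of 40 members, beside 29.3% of all genes, and this value also enters the change of mouse 2. Over the 11 chaperones the median log2 change came to 0.05 for mouse 2, 0.24 for mouse 4 and 0.30 for mouse 5.

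The ATF6 factors themselves differed in sign. Atf6 had a mean log2 change of 0.19 (interval -0.09 to 0.47) and Atf6b, its weaker relative, of -0.17 (interval -0.34 to 0.004), lower in 3 of 3 mice. Neither passed p under 0.05. Of the genes of ER-associated degradation, Syvn1, the ubiquitin ligase HRD1, stood at 8.36, 8.48 and 8.38 unstimulated and at 8.84, 8.68 and 8.68 with C5a, without overlap, a log2 change of 0.33 (SE 0.08, n = 3; limma adjusted p = 0.169). Its partner Sel1l had a log2 change of -0.16 (interval -0.36 to 0.05; limma adjusted p = 0.448), with a value below 0 in 3 of 3 mice and overlapping groups, and the difference between the 2 genes was not tested. Herpud1 (-0.08), which recruits this ligase, and Edem1 (0.05), a lectin that hands over misfolded glycoproteins, had changes of both signs among the mice.

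Ern1, which encodes IRE1α, was the only member past the methods' thresholds on the higher side. It stood at 7.75, 7.56 and 7.59 unstimulated and at 9.21, 8.20 and 8.55 with C5a, and every culture with C5a lay above every unstimulated one. The log2 change was 1.02 (SE 0.17, n = 3; limma adjusted p = 0.110), a 2.02-fold increase, with 1.45 in mouse 2, 0.64 in mouse 4 and 0.96 in mouse 5. Xbp1, whose mRNA IRE1α splices, stood at 10.90, 10.73 and 10.83 unstimulated and at 10.98, 11.03 and 10.39 with C5a, and its mean log2 change was -0.02 (interval -0.43 to 0.39). It was higher in mice 2 and 4 and lower, by -0.44, in mouse 5. The probeset sums the spliced and unspliced forms of Xbp1, as far as its single value shows, so splicing was not measured.

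**Figure D5:**
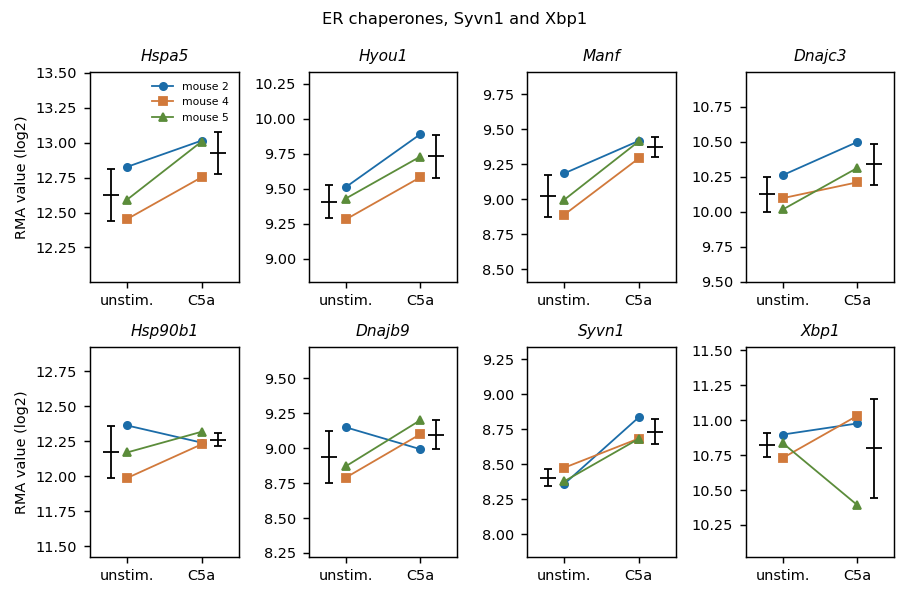
RMA values (log2) of 6 ER chaperones and cofactors, of Syvn1 and of Xbp1, with 1 line per mouse from unstimulated to C5a, and the mean with SD (n = 3) beside each group. All 3 lines rise for Hspa5, Hyou1, Manf, Dnajc3 and Syvn1, the line of mouse 2 falls for Hsp90b1 and Dnajb9, and that of mouse 5 falls for Xbp1.

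Other genes of the same pathways, 49 that are no members, were measured for 44. By the methods' thresholds 3 of the 44 were lower and 5 higher, beside 2.21% and 2.22% of all genes, and 0 of 44 passed the adjusted one. At an unadjusted p under 0.05 (limma) 10 were lower and 5 higher, beside 11.9% and 8.26% of all genes. Atf4, named here after its value was seen, stood at 8.76, 8.64 and 8.74 unstimulated and at 8.41, 8.39 and 8.10 with C5a, without overlap, a log2 change of -0.41 (SE 0.10, n = 3; limma adjusted p = 0.164). Its mRNA level does not give its translation, which is the step that eIF2α controls. The 3 lower genes were Atf3, a repressor that PERK signalling and many other stimuli induce (-1.70), Eif2ak2, the double-stranded RNA sensor PKR and another kinase of eIF2α (-0.62), and Slc38a2, a carrier of small neutral amino acids (-0.77). The 5 higher ones were the amino acid carriers Slc7a11 (1.15), Slc7a1 (0.68) and Slc7a5 (0.62), all ATF4 targets as well, and Creb3l1 (0.77) and Creb3l2 (0.75), relatives of ATF6 that act in secretory cells of bone and cartilage. All 8 moved the same way in 3 of 3 mice, which their selection by p and fold in these same mice favours. The ATF4 targets thus did not all move the same way. Slc7a5 stood at 9.40, 8.52 and 9.06 unstimulated and at 9.92, 9.22 and 9.71 with C5a. Asns and Chac1 were at lower means with C5a, though Asns was higher in mouse 4 (0.09). In the list, 8 of 8 regulators and 7 of 7 amino acid and one-carbon enzymes had mean changes below 0. Of the 44 measured genes outside it, 17 were lower and 7 higher in 3 of 3 mice, beside 22.9% and 19% of all genes. The 17 held Slc3a2 (-0.41), Cth (-0.50), Cars (-0.55) and Sars (-0.40), all below 1.5-fold. The groups of Slc7a5 overlapped, with mouse 4 lowest in both. Those of Slc7a11 overlapped as well, at 5.06, 5.73 and 4.79 unstimulated and 6.73, 7.20 and 5.09 with C5a. Its unstimulated values lay below the lowest array median of 5.892, and its change in mouse 5 was 0.31.

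Early response genes and cell type markers were read beside these genes. Of 14 early response genes (the FOS, JUN and EGR families and others), 13 were lower by the methods' thresholds, beside 2.21% of all genes. The median log2 change of the 14 was -2.64, and 4 of them, Fos, Zfp36, Ier2 and Btg2, made up the probesets past the adjusted threshold. The study had already reported the 13 as reduced in its microarray data, so their count is no separate result. Of 12 osteoblast markers 9 were measured, of which 0 passed the methods' thresholds and 2 had an unadjusted p under 0.05 (limma, both lower). The median of the 9 was 10.39, 11.42 and 7.99 in the unstimulated cultures and 10.36, 11.22 and 7.85 with C5a. It does not fall on the same gene in every mouse. Unstimulated, Ibsp stood at 11.75, 12.88 and 7.56, but Col1a1 at 13.45, 13.79 and 13.41 and Sparc at 14.10, 14.14 and 14.04. Of 15 macrophage and osteoclast markers, 12 had a change below 0, with a median log2 change of -0.18. At an unadjusted p under 0.05 (limma) 4 were lower and 1 higher, and by the methods' thresholds 1 (Mrc1) was lower and 0 higher. For both marker lists, the shares of all genes were 11.9% lower and 8.26% higher at that p. By the thresholds they were 2.21% and 2.22%. The median of the 15 macrophage and osteoclast markers was 9.48, 10.42 and 5.98 in the unstimulated cultures and 9.12, 9.70 and 5.90 with C5a. The medians of both lists were thus lowest in mouse 5 in either group. In mouse 5 the log2 changes were -1.20 for Ppp1r15a, -1.51 for Sesn2, -0.96 for Chac1, -0.73 for Ddit4, -0.41 for Ddit3, the smallest decrease of the mice for that gene, and 0.96 for Ern1. The part of these markers in the changes of the stress response genes was not tested. In bulk RNA, fewer cells of a type and less RNA per cell cannot be told apart.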

How the data were processed

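Total RNA of each culture was hybridised to an Affymetrix whole-transcript mouse array. The values deposited by the authors are log2 intensities summarised per probeset by RMA (the robust multiarray average), as the study's methods and the submitters' processing notes (Affymetrix Expression Console, RMA) say. Neither the versions nor any further arrays in that normalization are given in the sources used here. RMA values of different probesets are not comparable in level, and the number of arrays, 3 per group, limits the precision.

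All 35556 probesets were fitted with limma 3.58.1 (R 4.3.3; lmFit and eBayes, no further normalization or filter) with the mouse number of the titles as a block, with Benjamini-Hochberg adjustment over all of them. The labels say that each mouse's cells were divided between the groups. Deviations from the group means correlated at 0.495 to 0.684 between cultures of the same mouse and at -0.446 to -0.035 between mice. The thresholds of the methods, whose fold is printed there as an upper limit of 1.5, were read as p under 0.05 and at least 1.5-fold. Probesets were named through the platform annotation, where 21789 name 1 gene, and all 40 members are named, those past the methods' thresholds with full statistics, as are the other pathway genes past them. Members and lists were chosen with earlier results of these data known, so no test was run over a list. Promoters are RefSeq windows of GRCm38.p6. The steps were tested on simulated data. Some results are not reported here.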

Additional observations from a re-analysis of the deposited data

How the results depend on the processing

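The limits are set by 3 mice. Without the replicate block, limma gave the same 5 lower members and 1 higher member and 0 past the adjusted threshold, with a smallest adjusted p of 0.105. The counts of 5 lower and 1 higher members were the same under the methods' t-test, a variance trend with robust estimation, the filter at the 40th percentile, probesets naming 1 gene, median centring, quantile normalization and the probeset with the largest spread. The paired form of the methods' t-test gave 2 lower and 0 higher. Of members past the adjusted threshold there were 2 with the filter (Ppp1r15a and Ddit4) and 5 with probesets naming 1 gene, beside 373 and 795 probesets in all in place of 4. Both settings test fewer probesets, and their fits differ too, with 5.51 and 5.49 degrees of freedom in place of 4.77. The unadjusted p of Ppp1r15a (limma) was 2.02e-05 and 1.13e-05 in them, in place of 3.99e-05. With 1 mouse left out the lower members numbered 5 to 7, the higher ones 1 and those past the adjusted threshold 0, and over all probesets 0, 3 and 0 passed it without mouse 2, 4 and 5. The sign turned for 6 members not past any threshold when 1 mouse was left out, with log2 changes from -0.075 to 0.107 for Eif2ak3, -0.15 to 0.12 for Cebpg, -0.179 to 0.0128 for Phgdh, -0.186 to 0.031 for Herpud1, -0.011 to 0.147 for Pdia4 and -0.18 to 0.19 for Xbp1; the cause was not tested. Arm medians kept their sign under every setting run. Settings that change only the form of the test, the filter or the probesets fitted leave each member's mean change as it is. The sign of a median could not turn in those settings.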
